A study of Mus musculus with 9 samples.

Results

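Myeloid C-type lectins are receptors of macrophages, dendritic cells and other phagocytes that read sugars on microbes, mites, pollen and dying host cells. The 9 genes taken here were Clec7a, Clec4n, Clec4d, Clec4e, Clec4a2, Clec12a, Mgl2, Clec10a and Cd209a, and they were found as the probe sets with exactly 1 of these symbols in the platform annotation. That rule found 8 of the 9 genes, out of 18194 genes with such a probe set in the series, and gave them 11 of its 45101 probe sets. Clec12a was not analysed here, and 1 probe set that names Clec4a2 together with another gene was left out. Of the 8 genes, 7 passed the filter on dim probe sets, with 8 probe sets, and were tested among 11984 genes.

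The RNA came from whole lungs of 9 female C57BL/6 mice aged 14 weeks, each on 1 Affymetrix 3' expression array. All 9 mice had received a replication-deficient adenovirus into the trachea 14 days before. In 3 mice the virus carried no cytokine gene (AdV-NULL, called control below), in 3 it held the mouse cytokine IL-4 (AdV-IL4), and in 3 an alternatively spliced mouse form of that cytokine, IL-4d2 (AdV-IL4d2). Every group was thus infected, and no uninfected lung was analysed here. The promoter that drives the cytokine genes and the cells that take up the virus are not given in the sources used here. The comparisons ask which of these receptors differed in the lung with each cytokine form, and whether the forms differed from each other.

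These receptors fall into groups by what they bind and how they signal. Clec7a (dectin-1) binds beta-glucan of fungal walls and carries its own activating motif, through which the kinase Syk and the adaptor Card9 switch on NF-kappaB. Clec4n (dectin-2), Clec4d (MCL) and Clec4e (Mincle) reach the same kinase through the Fc receptor gamma chain, Fcer1g. Clec4a2 (DCIR) and Clec12a carry inhibitory motifs and recruit the phosphatases Ptpn6 and Ptpn11. Mgl2 and Clec10a are the mouse macrophage galactose lectins, and Cd209a is a relative of human DC-SIGN. Mgl2, Clec10a and Clec7a are widely used as marks of macrophages and dendritic cells exposed to IL-4, which acts through the transcription factor STAT6.

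Most of the family sits in a pair of clusters on mouse chromosome 6. In the RefSeq gene order, Clec4a2, Clec4b2, Clec4n, Clec4d and Clec4e are consecutive, and Clec12a and Clec7a lie in the other cluster, where Olr1 follows Clec7a. Mgl2 and Clec10a are neighbours on chromosome 11, and Cd209a lies on chromosome 8. RefSeq promoter windows (build GRCm38.p6) were at hand for 7 of the 9 genes, and for Clec10a and Clec4n none is printed. The windows below are those of the members whose signals differed most clearly between groups, and that of Clec4d. The mean of Clec4d was highest with IL-4d2, but none of its comparisons was called in the main fit. The 4 windows are the 250 bases before the annotated start of each gene. They are written 5′ to 3′ on the gene's strand, with capitals on the motifs named after them.
Clec7a, chr6:129472780-129473029, minus strand: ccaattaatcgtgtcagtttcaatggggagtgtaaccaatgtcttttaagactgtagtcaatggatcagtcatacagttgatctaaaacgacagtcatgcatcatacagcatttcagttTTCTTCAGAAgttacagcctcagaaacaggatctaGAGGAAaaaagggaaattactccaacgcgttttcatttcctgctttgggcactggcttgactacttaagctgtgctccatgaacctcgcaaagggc
Clec4a2, chr6:123122440-123122689, plus strand: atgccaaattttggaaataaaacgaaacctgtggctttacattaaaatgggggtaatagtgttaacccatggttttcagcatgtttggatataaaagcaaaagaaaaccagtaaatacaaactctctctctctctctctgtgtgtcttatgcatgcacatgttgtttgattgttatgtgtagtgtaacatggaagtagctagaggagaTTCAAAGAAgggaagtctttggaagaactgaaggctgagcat
Mgl2, chr11:70130107-70130356, plus strand: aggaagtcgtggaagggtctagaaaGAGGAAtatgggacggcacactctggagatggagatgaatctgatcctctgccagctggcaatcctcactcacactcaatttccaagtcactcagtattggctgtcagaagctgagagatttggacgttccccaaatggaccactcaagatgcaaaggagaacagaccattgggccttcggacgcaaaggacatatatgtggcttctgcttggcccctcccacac
Clec4d, chr6:123261857-123262106, plus strand: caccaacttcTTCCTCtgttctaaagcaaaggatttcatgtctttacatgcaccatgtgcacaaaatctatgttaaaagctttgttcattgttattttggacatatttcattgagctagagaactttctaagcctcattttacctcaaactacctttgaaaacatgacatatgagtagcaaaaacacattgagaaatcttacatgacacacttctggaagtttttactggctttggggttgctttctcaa

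The windows hold 3 kinds of motif. Both strands were searched, and the marked motifs do not overlap one another. GAGGAA, the core read by the myeloid factor PU.1 and other Ets proteins, occurs in the Clec7a, Mgl2 and Clec4d windows, in Clec4d on the opposite strand, where it reads TTCCTC. It was found in 5 of the 7 windows of members and in 23.3% of all 32851 promoter windows of that length. TTCNNNNGAA, the spacing that STAT6 prefers, occurs as TTCTTCAGAA in the Clec7a window, 131 bases before the start, and in 5.85% of all windows. TTCNNNGAA, the spacing of other STAT proteins, occurs as TTCAAAGAA in the Clec4a2 window and in 7.02% of all windows. The Mgl2 and Clec4d windows hold neither STAT spacing. The Cd209a window holds none of the 6 motifs searched. A match of letters is not evidence of a bound site.

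Before the results, the arrays themselves need a description. The Il4 signal was higher with both cytokine viruses, as the labels would have it. It was 43.5 ± 27.9 in control mice, 338 ± 39.1 with AdV-IL4 and 872 ± 343 with AdV-IL4d2 (SD, n = 3 each). No control array lay above the array median, so Il4 entered the test only through the cytokine groups and no fold is given. Array medians ran from 156 to 171. The 3′ to 5′ signal ratio of Gapdh, a sign of RNA integrity, was 0.955 to 1.45 on control arrays, 1.54 to 1.80 on IL-4 arrays and 1.35 to 1.57 on IL-4d2 arrays, so that IL-4 and control did not overlap. Striated muscle genes stood apart most on 2 arrays, with a mean log2 signal of 13.2 on control mouse 1 and 7.18 on IL-4 mouse 2. By group this mean was 9.83 to 13.2 in control, 7.18 to 8.92 with IL-4 and 8.51 to 9.84 with IL-4d2. IL-4 and control thus did not overlap, also without those 2 arrays, and 8 of 9 such genes were lower with IL-4. The part of RNA integrity and of muscle tissue in the results below was not tested. A fit without those 2 arrays has fewer arrays and a wider error. It is given beside the lectin calls it ended and the counts against control that it moved by over 1.5 times. With it 1 of the 9 muscle genes was lower with IL-4. Calls with IL-4 against control fell over all 11984 genes too, from 760 to 332 higher and from 794 to 326 lower.

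**Figure D1:**
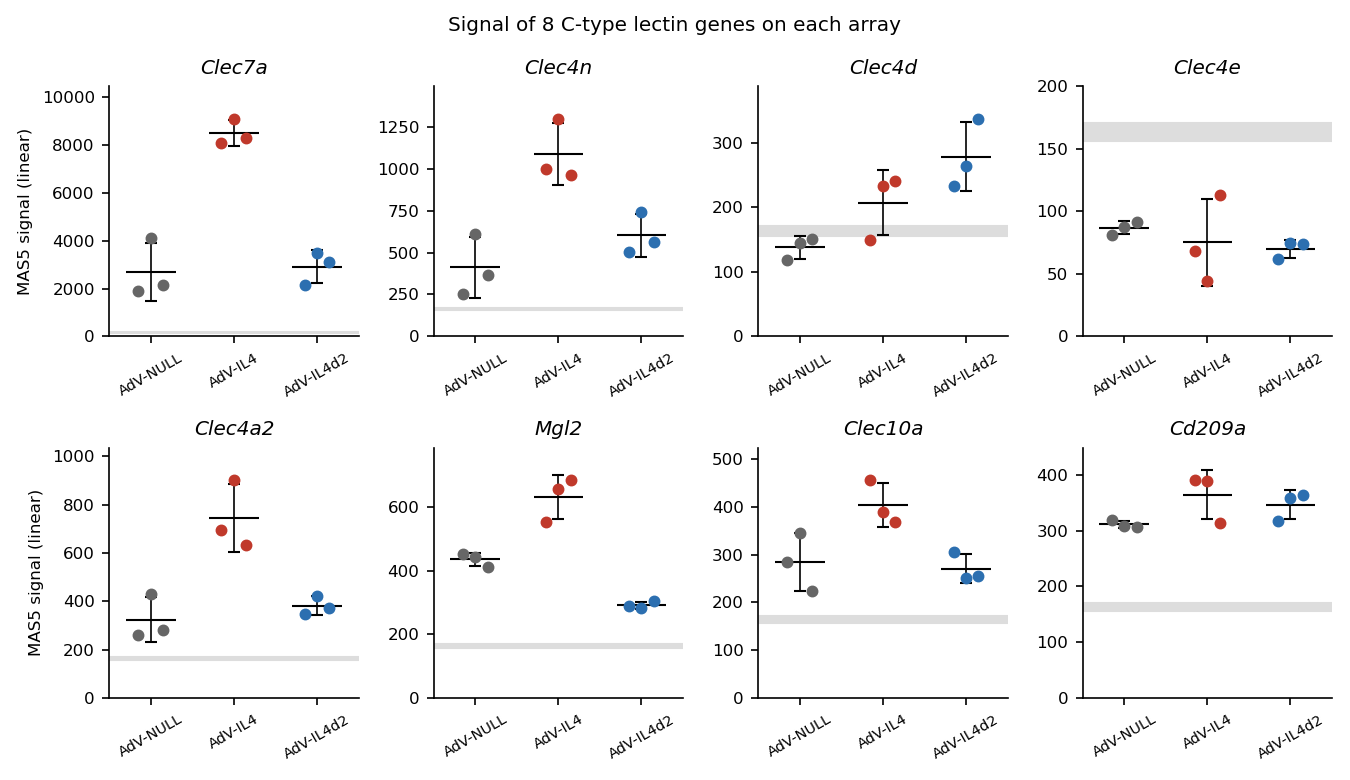
MAS5 signal on a linear scale (vertical axis) of 8 C-type lectin genes on each array, grouped by virus. Points are mice, horizontal lines are group means, error bars are SDs over 3 arrays, and the grey band spans the 9 array medians from 156 to 171. Clec7a, Clec4n and Clec4a2 are highest on the 3 IL-4 arrays, Mgl2 takes 3 separate levels, Clec4d has its highest mean with IL-4d2, where the arrays overlap those with IL-4, and Clec4e lies under the band everywhere.

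With IL-4, 4 of the 7 tested genes rose against control: Clec7a 3.31-fold, Clec4n 2.71-fold, Clec4a2 2.26-fold and Mgl2 1.43-fold, and none fell. Clec10a, Clec4d and Cd209a did not pass the test. The background was high in this comparison, since 6.34% of all 11984 genes were called higher and 6.63% lower (limma adjusted p under 0.05). The 7 genes had a median log2 difference of 0.52, against −0.018 over all genes. In whole lung, more cells of a type and more RNA per cell cannot be told apart. MAS5 scaling fixes the typical signal of every array, so each change is relative to the other genes.

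Clec7a, the beta-glucan receptor, was read by 1 probe set. Its signal was 1885, 4099 and 2146 on the control arrays, 8098, 9108 and 8306 on the IL-4 arrays, and 2162, 3480 and 3115 on the IL-4d2 arrays. All 3 IL-4 arrays lay far above the other 6, which overlapped, and control mouse 2 was as high as the IL-4d2 mice. The log2 difference was 1.73 ± 0.24 (SE) with IL-4 against control (limma adjusted p = 0.00120), with a 95% interval from 1.20 to 2.26. Against IL-4d2 it was 1.56 ± 0.24, or 2.96-fold (adjusted p = 0.00802). With IL-4d2 against control it was 0.17 ± 0.24 (adjusted p = 0.817), with an interval from −0.36 to 0.69. The upper end of that interval lies below the lower end of the one for IL-4. The IL-4 calls of Clec7a held in each of the 9 fits with 1 array left out. With both arrays of outlying muscle signal dropped, its difference from control was 1.46 (adjusted p = 0.0130).

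Clec4n, the dectin-2 receptor for fungal mannans and mite allergens, was read by a pair of tested probe sets. On the brighter one, whose name marks a probe set that can match more than 1 transcript, the signals were 255, 609 and 369 in control mice, 998, 1299 and 962 in IL-4 mice, and 501, 744 and 561 in IL-4d2 mice. The IL-4 arrays were again above all others, while the IL-4d2 arrays overlapped the control arrays, where mouse 2 was high. The difference was 1.44 ± 0.25 with IL-4 (adjusted p = 0.00425). The dimmer probe set gave 1.33 ± 0.24 (2.51-fold, adjusted p = 0.00563). With IL-4d2 the brighter probe set differed from control by 0.60 ± 0.25 (adjusted p = 0.299), and the IL-4 group differed from IL-4d2 by 0.84 ± 0.25 (adjusted p = 0.120), neither past the threshold. The difference from IL-4d2 was called without control mouse 2, at the same 0.84 (adjusted p = 0.0455). The IL-4d2 value was 0.31 without control mouse 1 and 0.92 without control mouse 2. Clec4n therefore lay at an intermediate mean with IL-4d2, 602 ± 126 against 411 ± 181 in control and 1086 ± 185 with IL-4 (SD, n = 3 each), of which only the step from control to IL-4 was called.

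Clec4d, which pairs with Clec4e and the gamma chain to read mycobacterial glycolipids, followed another order. Its probe set, also of the kind that can match more than 1 transcript, gave 118, 145 and 152 in control mice, 149, 233 and 241 in IL-4 mice, and 234, 265 and 338 in IL-4d2 mice. No control array lay above the array median, against 2 of 3 IL-4 arrays and all 3 IL-4d2 arrays, so the gene entered the test only through the groups where it was high. The IL-4d2 arrays lay above all control arrays, with a log2 difference of 0.93 ± 0.22, or 1.90-fold, which did not pass the threshold (adjusted p = 0.0684). It was called in 4 of 21 alternative fits, among them the one without IL-4 mouse 1 (adjusted p = 0.0365). With IL-4 the difference from control was 0.52 ± 0.22 (adjusted p = 0.167), and between IL-4 and IL-4d2 it was −0.41 ± 0.22 (adjusted p = 0.387), −0.21 without IL-4 mouse 1 and −0.27 without IL-4d2 mouse 3. When arrays were scaled to spiked control RNAs instead, that difference was called, at −0.91 with the hybridisation controls (adjusted p = 0.0147) and −1.40 with the poly-A controls (adjusted p = 3.35e-05). On those scales 6310 and 11462 of all 11984 genes were called lower with IL-4 than with IL-4d2, with medians of −0.54 and −1.06. These calls are therefore not particular to Clec4d. Clec4d was the 1 tested member with its highest mean in the IL-4d2 group.

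Clec4e, the neighbour and partner of Clec4d, gave signals below the array median on all 9 arrays on both of its probe sets and was not tested in the main fit. The brighter one ran from 81.2 to 91.4 in control mice, from 44.2 to 113 in IL-4 mice and from 61.6 to 74.5 in IL-4d2 mice. The dimmer one ran from 6.85 to 63.1 over the 9 arrays. In a fit without the filter neither probe set was called, with log2 differences of −0.24 ± 0.33 with IL-4 and −0.26 ± 0.33 with IL-4d2 on the brighter one. A dim probe set sets no level for the gene, so these values say little about Clec4e itself.

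Clec4a2, the inhibitory receptor next to these genes on chromosome 6, rose with IL-4. Its signals were 261, 432 and 280 in control mice, 696, 902 and 632 in IL-4 mice, and 348, 424 and 373 in IL-4d2 mice. The IL-4 arrays stood apart from the other 6, in which IL-4d2 lay within the range of control. The log2 difference was 1.18 ± 0.19 against control (adjusted p = 0.00269) and 0.92 ± 0.19, or 1.90-fold, against IL-4d2 (adjusted p = 0.0324). With IL-4d2 against control it was 0.25 ± 0.19 (adjusted p = 0.595), with an interval from −0.16 to 0.67. The call against control held in all 9 fits with 1 array left out. The call against IL-4d2 held in 4 of 9, and was lost without IL-4 mouse 1, IL-4 mouse 2 or any 1 of the IL-4d2 mice, where the lowest value was 0.78. With both arrays of outlying muscle signal dropped it was also lost, at 0.78 (adjusted p = 0.0802). A dimmer probe set of the gene lay below the median on all arrays, at 22.2 to 132. When both probe sets were averaged the call against control was lost, at 0.80 (adjusted p = 0.0615), and the difference from IL-4d2 was 0.26.

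Mgl2, the galactose lectin of dermal and lung dendritic cells and macrophages, was the 1 member called in opposite directions with the cytokine forms. Its signals were 452, 444 and 413 in control mice, 553, 657 and 686 in IL-4 mice, and 289, 282 and 304 in IL-4d2 mice. The groups took 3 levels without overlap, with means of 436 ± 20.6, 632 ± 69.6 and 292 ± 11.0 (SD, n = 3 each). With IL-4 it rose by 0.51 ± 0.12 (adjusted p = 0.0185), and with IL-4d2 it fell by 0.56 ± 0.12 on the log2 scale, a 1.47-fold decrease (adjusted p = 0.0460). The difference between the forms was 1.07 ± 0.12, or 2.10-fold (adjusted p = 0.00144). That last call held in all 9 fits with 1 array left out, with values from 1.01 to 1.16. The other 2 calls were less firm. The rise with IL-4 was lost when control mouse 3 (0.48) or either IL-4 mouse 2 (0.48) or 3 (0.45) was dropped. The fall with IL-4d2 was kept only without IL-4 mouse 1, although its value stayed between −0.59 and −0.53 in the 9 fits. With both arrays of outlying muscle signal dropped, the values against control were 0.51 with IL-4 (adjusted p = 0.106) and −0.53 with IL-4d2 (adjusted p = 0.174), neither called.

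**Figure D2:**
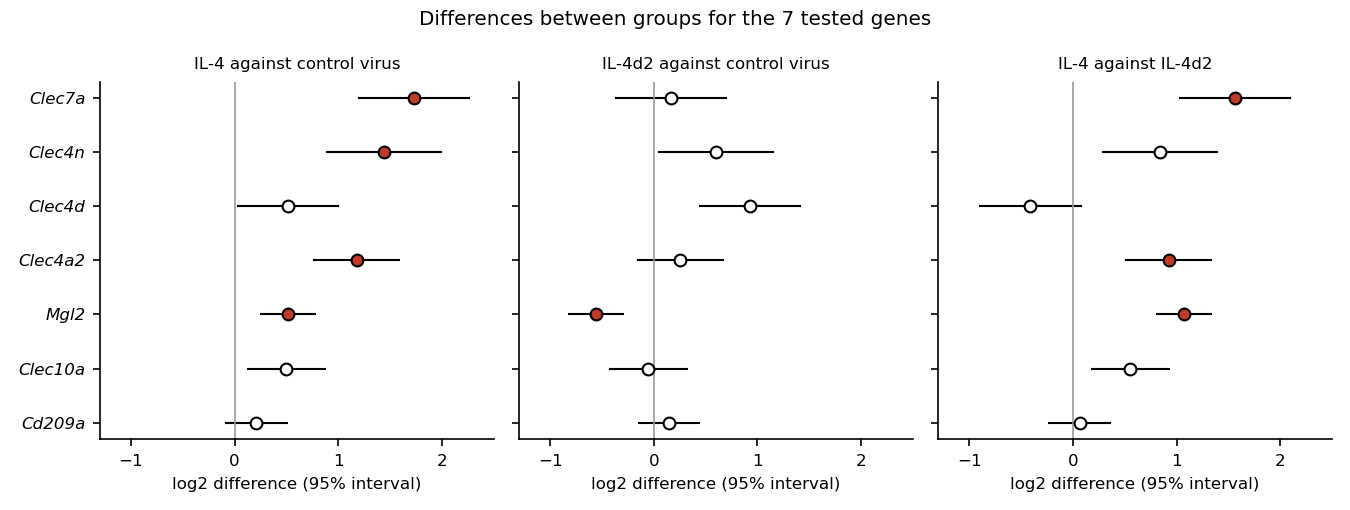
Log2 differences between groups (horizontal axis) for the 7 tested genes in the 3 comparisons. Points are estimates from the model over all 9 arrays, bars are 95% intervals, and filled points passed an adjusted p of 0.05. Clec7a, Clec4n, Clec4a2 and Mgl2 are filled with IL-4 against control, and Mgl2 alone with IL-4d2 against control. Between the forms Clec7a, Clec4a2 and Mgl2 are filled. Scaling to poly-A controls turns the sign of Mgl2 with IL-4. That scaling calls Clec4d and Cd209a lower with IL-4 than with IL-4d2, as it does 11462 of all 11984 genes.

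Clec10a, the paralogue and chromosomal neighbour of Mgl2, had a difference of similar size with IL-4 that was not called. Its signals were 284, 344 and 224 in control mice, 456, 388 and 368 in IL-4 mice, and 306, 251 and 254 in IL-4d2 mice. The IL-4 arrays lay above the control and IL-4d2 arrays, which overlapped each other. The log2 difference with IL-4 was 0.50 ± 0.17 (adjusted p = 0.0857), and it was 0.64 and called without control mouse 2 (adjusted p = 0.0451). It was 0.35 without control mouse 3. With IL-4d2 the difference was −0.054 ± 0.17 (adjusted p = 0.924), with an interval from −0.43 to 0.32, and it was 0.088 without control mouse 2. The IL-4 and IL-4d2 groups differed by 0.55 ± 0.17 (adjusted p = 0.133).

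Cd209a, a mark of monocyte-derived and conventional dendritic cells, was called in no comparison on the MAS5 scale. It gave 319, 308 and 308 in control mice, 391, 389 and 314 in IL-4 mice, and 317, 359 and 364 in IL-4d2 mice. The 3 groups overlapped. Its differences were 0.21 ± 0.13 with IL-4 (adjusted p = 0.351), 0.15 ± 0.13 with IL-4d2 (adjusted p = 0.681) and 0.065 ± 0.13 between the forms (adjusted p = 0.849). The 95% interval with IL-4 ran from −0.081 to 0.50.

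In all, groups did not overlap for 5 of the 7 tested genes with IL-4 against control, each of them higher, where 31.9% of all genes did not overlap and 14.9% did so with IL-4 higher. With IL-4d2 against control, 1 of the 7 was called, Mgl2, which was lower, against a background of 0.401% of genes called lower and 0.859% called higher. Groups did not overlap there for Mgl2 and Clec4d, against 22.6% of all genes. Clec4d entered the test only through the groups where it was high, so its part in the counts of this paragraph supports nothing. At an unadjusted p under 0.05, 6 of the 7 passed with IL-4, against 28.9% of all genes. With IL-4d2 3 of the 7 passed, namely Mgl2, Clec4d and Clec4n, against 15.5% of all genes, and between the forms 5 of the 7 passed, against 18.5%. Between the forms, 3 of the 7 were called, all higher with IL-4 on the MAS5 scale, against 1.18% of genes called higher and 1.05% lower. Groups did not overlap there for 5 of the 7, each higher with IL-4, against 24.0% of all genes and 11.1% with IL-4 higher. Both comparisons with control use the same 3 control arrays, so their values are not independent. The direct comparison of the forms does not use those arrays, except in the estimate of the spread.

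**Figure D3:**
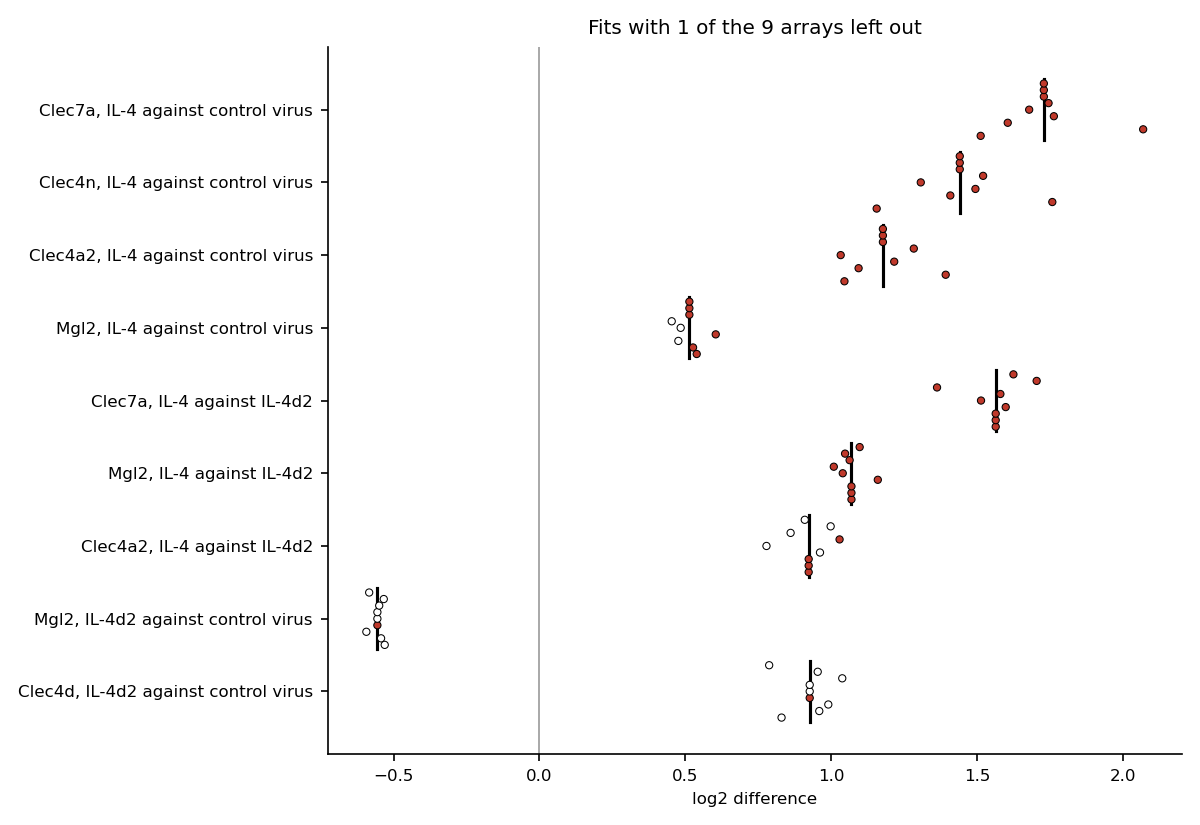
Log2 differences (horizontal axis) of 9 results when each of the 9 arrays is left out in turn. Each point is 1 fit, filled where the adjusted p was under 0.05, and vertical bars mark the value with all arrays. Clec7a, Clec4n and Clec4a2 against control stay filled throughout, as do Clec7a and Mgl2 between the forms, while Mgl2 with IL-4d2 is filled in 1 of 9 fits although its values lie between −0.59 and −0.53.

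The absolute scale matters for the smaller changes. When arrays were scaled to the poly-A controls added to the RNA, the median of all genes moved to −0.79 with IL-4 against control and to −1.06 between the forms, and with the hybridisation controls to −0.45 and −0.54. Clec7a and Clec4n stayed higher with IL-4 than control on both scales, at 0.93 and 0.66 with the poly-A controls, and both remained called. Clec4a2 was at 0.40 and not called on the poly-A scale (adjusted p = 0.134). Mgl2 turned to −0.26 and Clec10a to −0.26 on that scale, both still above the median of all genes. Between the forms, Clec7a stayed called at 0.49, Mgl2 was at 0.032 and Clec4a2 at −0.12. Clec4d and Cd209a were called lower with IL-4 than with IL-4d2 on the poly-A scale, at −1.40 (adjusted p = 3.35e-05) and −0.96 (adjusted p = 0.000532). Thus 1 lectin was called higher and 2 lower there. On that scale 11462 of all 11984 genes were called lower between the forms and 23 higher. A lower call was thus what nearly every gene got, and Cd209a lay above the median of all genes. With IL-4d2 against control, where the poly-A scaling moved the median of all genes to 0.27, Clec4d was at 1.20 and Clec4n at 0.88, both called, and Mgl2 stayed lower at −0.29 without a call. Whether the total RNA per lung differed between the groups was not tested.

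The genes through which these receptors signal were read from a list of 28 adaptors, kinases, phosphatases and transcription factors, of which 22 were tested. With IL-4, 8 of the 22 rose and none fell, against 6.34% of all genes called higher and 6.63% lower. The median log2 difference was 0.38. Malt1, the protease that works with Bcl10 below Card9, rose 2.44-fold, from 604 ± 166 to 1474 ± 200 (SD, n = 3 each; adjusted p = 0.00101). Inpp5d, the lipid phosphatase SHIP-1, rose 1.74-fold (adjusted p = 0.00419), and Irf5, a transcription factor used downstream of dectin-1, rose 1.73-fold (adjusted p = 0.00916). Syk, the shared kinase, rose 1.68-fold (adjusted p = 0.00386), and Ptpn6, the phosphatase recruited by Clec4a2, rose by 0.59 on the log2 scale (adjusted p = 0.0231). Inpp5d and Irf5 were at 0.014 and 0.021 on the poly-A scale and were not called there or with the hybridisation controls. Irf5 also lost its call when its probe sets were averaged. Malt1 was at 0.50 on the poly-A scale and not called there (limma adjusted p = 0.0560). Syk and Ptpn6 were not followed across the scales. On the MAS5 scale, both activating and inhibitory parts of the pathway were thus among the genes that rose. Fcer1g, the gamma chain of Clec4n, Clec4d and Clec4e, had a difference of 0.33 ± 0.15 and was not called (adjusted p = 0.174). With the arrays of outlying muscle signal dropped, 3 of the 22 rose, while over all 11984 genes those called higher fell from 760 to 332. With IL-4d2 none of the 22 was called and the median was 0.22. There 7 had an unadjusted p under 0.05, all higher, against 15.5% of all genes in either direction. Between the forms only Malt1 was called, higher with IL-4 by 0.90 ± 0.18 (adjusted p = 0.0256), and that call held in 5 of 9 fits with 1 array left out.

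The outputs that fungal ligands of these receptors induce were mostly dim, and 10 of 17 were tested, with Il6, Tnf, Il10, Il23a and Cxcl2 among those below the filter. With IL-4, Ccl3, a chemokine for monocytes, rose from 110 ± 66.4 to 407 ± 66.9 (adjusted p = 0.00901). It lay above the array median on 1 of 3 control arrays, 0 of 3 IL-4d2 arrays and 3 of 3 IL-4 arrays, so it passed the filter through the group where it was high and no fold is given. Egr2, a transcription factor induced both by dectin-1 and by IL-4, rose 2.05-fold (adjusted p = 0.0102). Ptgs2, the inducible cyclooxygenase, fell by 0.76 on the log2 scale (adjusted p = 0.0413), a call that held in 1 of 9 fits with 1 array left out. With IL-4d2 none of the 10 was called and 3 had an unadjusted p under 0.05, against 15.5% of all genes. With the arrays of outlying muscle signal dropped, 2 of the 10 were called lower with IL-4d2, against 31 of all 11984 genes. Egr2 was at 254 ± 17.9 in IL-4d2 mice against 354 ± 136 in control mice, and between the forms it was 2.68-fold higher with IL-4 (adjusted p = 0.00615). These genes have many inducers, and no ligand of the receptors was given to the mice according to the labels.

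Other lectins moved both ways. Of 26 tested C-type lectin receptors and selectins outside the 9 genes, 6 rose and 4 fell with IL-4, with a median of 0.15. Over all genes 6.34% were called higher and 6.63% lower. Clec4a3, an inhibitory receptor of the same subfamily as Clec4a2, rose 2.38-fold (adjusted p = 0.000339). Olr1, the receptor for oxidised lipoprotein that lies beside Clec7a, rose 2.15-fold (adjusted p = 0.00464; 0.90 on the log2 scale and not called with the arrays of outlying muscle signal dropped, adjusted p = 0.0553) and was 2.69-fold higher with IL-4 than with IL-4d2 (adjusted p = 0.00415). Mrc1, the mannose receptor, rose 1.42-fold (adjusted p = 0.0356), kept in 4 of 9 fits with 1 array left out, and turned to −0.29 on the poly-A scale. Clec1a, on the other side of Clec7a, was lower by 0.35 on the log2 scale (adjusted p = 0.0217), so the neighbours of Clec7a did not move together. Asgr1, beside Mgl2 but for 1 gene, was called lower with IL-4 (limma adjusted p = 0.00507), at 27.1 ± 22.1 against 191 ± 15.8 in control. Only its control arrays lay above the array median, so it entered the test through the group where it was high and no fold is given. Cd72, a lectin of B cells, rose 2.25-fold with IL-4 and 2.37-fold with IL-4d2 and was the 1 gene of this list called with IL-4d2 (adjusted p = 0.00178). With the arrays of outlying muscle signal dropped, 3 of the 26 rose and 2 fell with IL-4, against 332 and 326 of all 11984 genes.

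Of 7 tested soluble lectins, 3 rose with IL-4 and none fell, while with IL-4d2 none was called and 3 had an unadjusted p under 0.05. Over all genes 6.34% were called higher with IL-4, and 15.5% had an unadjusted p under 0.05 with IL-4d2. Sftpd, surfactant protein D, rose 1.48-fold, and Lgals3, galectin-3, rose 1.41-fold. With the arrays of outlying muscle signal dropped neither was called, at 0.43 and 0.49 on the log2 scale (adjusted p = 0.135 and 0.152). Lgals3 lost its call in 6 of 9 fits with 1 array left out, and both turned negative on the poly-A scale, to −0.23 and −0.30. Lgals3 was 1.82-fold higher with IL-4 than with IL-4d2 (adjusted p = 0.00914). Itln1, an intestinal-type lectin of goblet cells, was called higher, at 1096 ± 1132 in IL-4 mice against 67.8 ± 101 in control. Its signal thus spread widely, and the call held in 5 of 9 fits. It lay above the array median on 1 of 3 control arrays, 2 of 3 IL-4 arrays and 0 of 3 IL-4d2 arrays, so no fold is given.

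**Figure D4:**
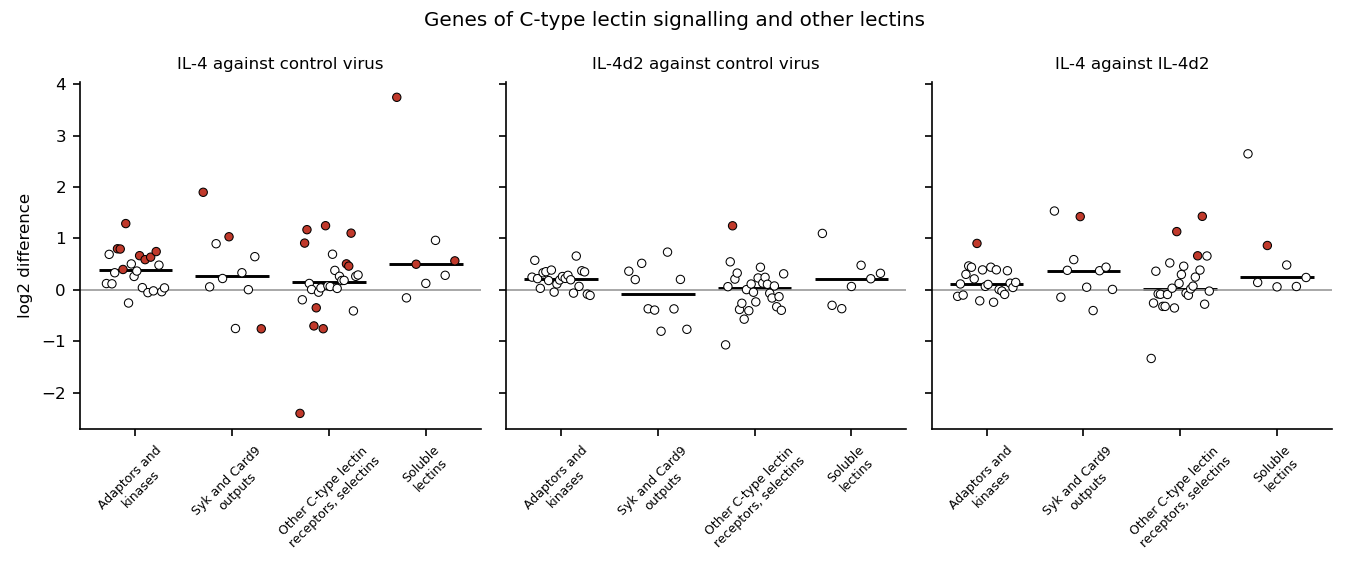
Log2 differences (vertical axis) of the tested genes of 4 lists in the 3 comparisons. Points are genes, filled where the adjusted p was under 0.05, and horizontal bars are list medians. With IL-4 against control, 8 of 22 adaptors and kinases are filled, all above 0, while other lectins are filled on both sides, and with IL-4d2 against control 1 point, Cd72, is filled.

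Since the receptors mark cell types, lists of cell markers were read on the same arrays. Beside the counts of every such list stand 6.34% of all genes called higher and 6.63% lower with IL-4. With IL-4d2 these shares were 0.859% and 0.401%. Of 12 macrophage genes, 6 rose and 1 fell with IL-4. Their summed signal ran from 42352 to 57676 in control mice and from 59618 to 63832 in IL-4 mice. The complement genes C1qa, C1qb and C1qc rose 2.05-fold, 2.90-fold and 2.40-fold, and the scavenger receptor Marco was called lower, at 58.4 ± 33.2 against 397 ± 61.0, with no IL-4 array above the array median. Csf1r and Lyz2 were not called. With IL-4d2 the complement genes rose by 1.12, 1.08 and 0.98 on the log2 scale, while Clec7a was at 0.17, and Marco was at −0.20 without a call.

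Of 11 dendritic cell genes, 5 rose with IL-4 and none fell, with summed signals of 13863 to 15419 in control mice and 17870 to 19179 in IL-4 mice. Zbtb46, at means of 825 in control and 826 with IL-4, and Tcf4, at 7925 and 7155, were among those not called. Itgax, the integrin CD11c, rose 3.01-fold and Itgae 2.88-fold. The mean of Itgax went from 1050 to 3157, a large part of the change in the summed signal. Irf4 was also called higher, at 322 ± 28.0 against 65.4 ± 44.3 in control, where no array lay above the array median, so it entered the test only through the cytokine groups and no fold is given. With IL-4d2, Itgae alone was called, in 4 of the 9 fits that drop an array, and Itgax was at 0.11 ± 0.15. The Itgae call was also lost with the arrays of outlying muscle signal dropped (0.71, adjusted p = 0.0677). Between the forms Itgax and Batf3 were higher with IL-4, by 1.48 ± 0.15 and 1.05 ± 0.20, of which the Batf3 call held in 4 of the 9 fits that drop an array. With those arrays of outlying muscle signal dropped, 3 of the 11 rose with IL-4, while over all 11984 genes those called higher fell from 760 to 332. Itgax and Clec7a were thus both called with IL-4 in either comparison and in neither case with IL-4d2, whereas the complement genes were called with both forms. With IL-4, C1qa and C1qc were not called on the poly-A scale. With IL-4d2, C1qb held its call in 5 and C1qc in 4 of the 9 fits that drop an array, and C1qc lost it with both arrays of outlying muscle signal dropped (0.87, adjusted p = 0.0989).

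Of 8 monocyte genes, 3 fell with IL-4, namely Nr4a1, Treml4 and F13a1. Nr4a1 had means of 3246 in control, 883 with IL-4 and 932 with IL-4d2, a large part of the change in the summed signal. The other monocyte genes were not called with IL-4, among them Ccr2, at means of 1364 in control and 1549 with IL-4, and Plac8, at 2975 and 2355. Of 4 neutrophil genes, S100a8 and S100a9 fell, the first by 1.97 and the second by 2.32 on the log2 scale. The summed monocyte signal was 10013 to 14475 in control mice, 7734 to 9473 with IL-4 and 8698 to 9797 with IL-4d2. The neutrophil sum was 5274 to 10683, 2410 to 6379 and 5041 to 11704 in the same order. Of 5 B cell genes, 4 rose with IL-4 and 1 with IL-4d2. Of those that rose with IL-4, Cd79a had 0 control arrays above the array median and entered the test only through the cytokine groups. The B cell sums were 2158 to 3036 in control mice, 3915 to 4306 with IL-4 and 3357 to 3925 with IL-4d2. Of 6 T cell genes, 1 rose with IL-4 and 2 with IL-4d2, with sums of 1391 to 1798, 1892 to 2380 and 2283 to 2438. With the arrays of outlying muscle signal dropped, 1 B cell gene and 0 T cell genes were called with IL-4, and 0 of either with IL-4d2. Of all 11984 genes, 332 were then called higher and 326 lower with IL-4, and 68 and 31 with IL-4d2. None of 7 epithelial and endothelial genes was called in any comparison by limma. An unadjusted p under 0.05 was found for 1 with IL-4, 0 with IL-4d2 and 1 between the forms, against 28.9%, 15.5% and 18.5% of all genes. The signals of these 7 genes were also summed. Their sums were 106408 to 151116, 129950 to 139323 and 120821 to 131002, which places lung markers on every array. Of the eosinophil, mast cell and basophil list only Kit passed the filter. The part of these cell types in the lectin results was not tested.

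Patterns like those of the called lectins were looked for over all 9 arrays. Each gene's log2 values were centred on its own mean, and likeness was the root mean square difference from the lectin, smaller being closer. For Clec7a the closest genes were Chil3 (0.174), a chitinase-like protein of alternatively activated macrophages, Itgax (0.194) and Rnase2b (0.244), a gene of the eosinophil-associated ribonuclease family. Rnase2b was dim and passed the filter only through the IL-4 arrays. Chil3 rose 2.67-fold with IL-4 (adjusted p = 0.00314), and differed by 0.058 ± 0.23 with IL-4d2. It was chosen for its likeness to Clec7a on these arrays, so these values follow from the choice and support nothing. For Clec4a2 they were Psap (0.107), a lysosomal protein, Itgb2 (0.110), the integrin chain CD18, and Mpeg1 (0.141), the macrophage pore protein perforin-2. For Clec4n they were Mpeg1 (0.176), Pik3r5 (0.181), a subunit of a leukocyte phosphoinositide kinase, and Fcgr2b (0.194), the inhibitory Fc receptor.

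For Mgl2 the closest genes were others. They were chosen for their likeness to Mgl2 on these arrays, so that they share its direction in each comparison follows from the choice and supports nothing. Slc7a2 (0.164), an arginine transporter, rose by 0.36 ± 0.09 with IL-4 and fell by 0.44 ± 0.09 with IL-4d2 (adjusted p = 0.0389), as Mgl2 did, although the first call held in 5 and the second in 2 of the 9 fits that drop an array. Bhlhe40 (0.186), a transcription factor, and Cish (0.186), a feedback inhibitor that STAT5 and STAT6 induce, were higher by 0.47 and 0.60 with IL-4, and at −0.32 and −0.33 with IL-4d2 without a call. Between the forms, Slc7a2, Bhlhe40 and Cish were each higher with IL-4, by 0.80, 0.80 and 0.92, and kept those calls in all 9 fits. On the poly-A scale the 3 genes turned negative with IL-4, to −0.43, −0.32 and −0.20, as Mgl2 did. Among the lectins themselves, Clec4a2 and Clec4n were closest to each other at 0.208, Clec4n and Clec7a at 0.327, and Clec7a and Clec4d farthest apart at 0.875. Mgl2 and its neighbour Clec10a were at 0.315.

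**Figure D5:**
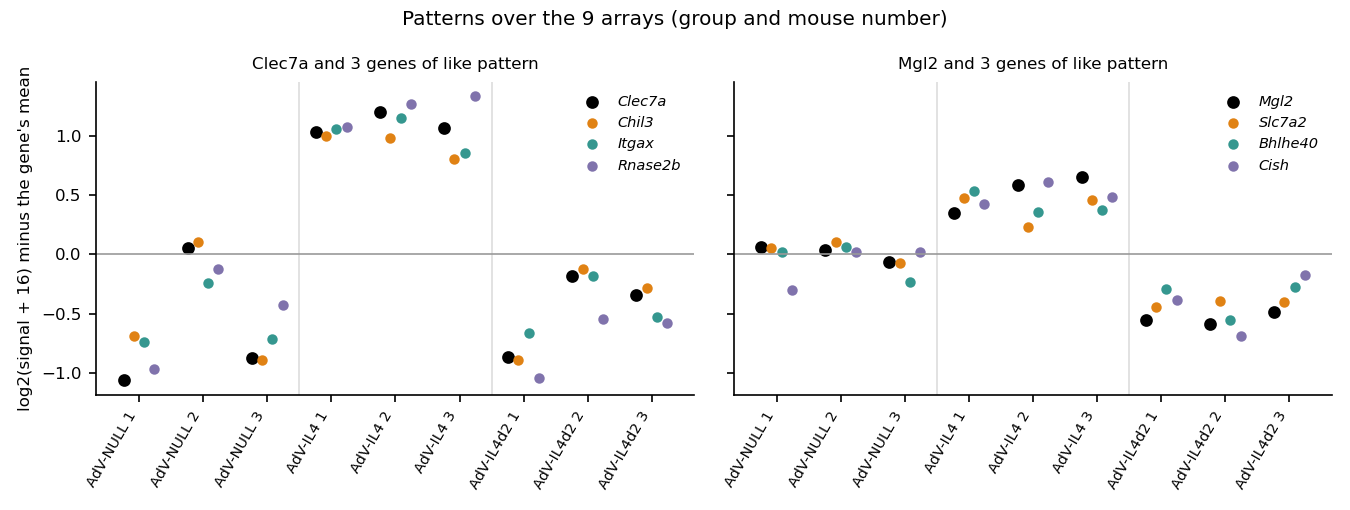
Log2(signal + 16) minus the gene's own mean (vertical axis) on the 9 arrays for Clec7a, Mgl2 and the 3 genes closest to each, labelled by group and mouse number. Points are single arrays. The Clec7a panel is high on the IL-4 arrays alone, with control mouse 2 above the other control mice for Clec7a, while Mgl2 falls into 3 levels, lowest on the IL-4d2 arrays, and Cish on control mouse 1 lies below its value on IL-4d2 mouse 3.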

How the data were processed

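Lung RNA from 9 mice, 1 array each, was grouped by the virus named in the labels. The values deposited by the authors are MAS5 signal intensities on a linear scale; Affymetrix Expression Console 2.0, GCOS and MAS5 are named in the submitters' processing notes, and the 2% trimmed mean of 500.002 on each array shows a common scaling. Per the labels, 200 ng of RNA was labelled from oligo-dT, so probe sets read 3′ ends. Depth does not apply to arrays, and 3 per group limit the precision.

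Signals were taken as log2(signal + 16), so folds of dim probe sets are understated. Probe sets above their array's median on at least 3 of 9 arrays were kept and 64 control probe sets left out, leaving 23824. One model over all arrays without covariates was fitted by limma 3.58.1 under R 4.3.3 (lmFit, then eBayes with a trend; 6 residual degrees of freedom), two-sided, with Benjamini-Hochberg adjustment over all probe sets per comparison. A call is an adjusted p under 0.05, "lost" means that it no longer passed, and the highest-signal probe set stood for a gene. Of the probe sets, 34958 had 1 gene symbol, 932 several and 9211 none. The fit was tested on simulated data. Replicates are separate mice per the titles, and no batch is named.

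Named genes were all members, Il4, and up to 3 called genes per list and comparison with the largest differences. The 3 genes of closest pattern to each called member were also named. Syk, Ptpn6, Fcer1g, Clec1a, Csf1r, Lyz2, Ccr2, Plac8, Zbtb46 and Tcf4 were added after their values were seen. The members and lists were chosen with earlier results of these data known. Alternatives were other added constants, filters, scalings, probe set rules, array weights, variance models, a replicate block and leaving out each array; the fit that drops both arrays of outlying muscle signal was chosen after the data were seen. No identical arrays were found (0 pairs). Motifs were searched with Python 3.11.15.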

Additional observations from a re-analysis of the deposited data

Results flagged for a closer look

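The 3 lectins whose responses to the cytokine forms differed, by the direct test of IL-4 against IL-4d2, were Clec7a, Mgl2 and Clec4a2. They were picked by that test, so the counts of 3 of 3 mice below add no support. Groups did not overlap, with IL-4 higher, for 11.1% of all genes in that comparison. Clec7a was higher with IL-4 by 1.56 on the log2 scale (limma adjusted p = 0.00802), with 3 of 3 IL-4 mice above every IL-4d2 mouse. Mgl2 was higher by 1.07 (adjusted p = 0.00144), again in 3 of 3, and it is the 1 lectin called against control in opposite directions with the forms. Clec4a2 was higher by 0.92 (adjusted p = 0.0324), in 3 of 3, and this call held in 4 of the 9 fits with 1 array left out. The Il4 probe set gave a mean of 338 ± 39.1 with AdV-IL4 and 872 ± 343 with AdV-IL4d2 (SD over 3 mice), so these lectins were higher in the group with the lower signal of the carried gene. Whether that probe set reads both vector transcripts alike was not tested.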

How the results depend on the processing

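Clec7a with IL-4, against control and against IL-4d2, and Clec4n against control kept their direction and call in all 22 alternatives. Of the lectins' differences under an alternative, 398 kept direction and side of the threshold, 35 lost a call, 11 gained one and 15 changed sign; over all named genes these were 1618, 216, 11 and 31. The number of lectins called with IL-4 against control was 4, with 3 to 5 when each array was left out in turn, and 2 with poly-A scaling. Over all genes 13% were called there, and 6.83% to 11.2% with an array left out. With poly-A scaling 80.4% were called, 86 genes higher and 9547 lower. Between the forms 3 lectins were called, with 2 to 4 when arrays were left out, against 2.24% and 0.634% to 2.42% of all genes. With IL-4d2 against control the number was 1, with 0 to 2 when arrays were left out, against 1.26% and 0.609% to 1.86% of all genes. The number was 0 with 64 added before log2, without a filter, with quantile normalization and with hybridisation control scaling. It was also 0 with only the 6 arrays compared, with eBayes without a trend, and with both arrays of outlying muscle signal dropped. With poly-A scaling or array weights it was 2. Over all genes, these settings with 0 called 0.776% to 1.43%, poly-A scaling 2.34% and array weights 2.61%. Whether mouse numbers pair the samples could not be told. Correlations of deviations ran from −0.069 to 0.116 for same-numbered mice and from −0.133 to 0.132 for the others. Between AdV-IL4 and AdV-IL4d2 they were 0.116, 0.102 and 0.0707 for same-numbered mice and −0.0894 to −0.0134 for the others. With the control mice, the same-numbered values had both signs. With the replicate block, 4, 1 and 4 lectins were called in the 3 comparisons, against 12.5%, 1.29% and 2.11% of all genes. Clec4d (0.93, adjusted p = 0.0440) replaced Mgl2 (−0.56, adjusted p = 0.0734) with IL-4d2, and Clec4n was added between the forms.

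Most sign changes came from scaling to spiked controls, which moved the median of all genes (poly-A −0.79, 0.27 and −1.06, hybridisation −0.45, 0.09 and −0.54 for IL-4 and IL-4d2 against control and IL-4 against IL-4d2). On the poly-A scale, values with IL-4 against control were −0.26 for Clec10a, −0.26 for Mgl2, −0.20 for Clec4d, −0.55 for Cd209a, −0.29 for Mrc1, −0.23 for Sftpd, −0.30 for Lgals3, −0.43 for Slc7a2, −0.32 for Bhlhe40 and −0.20 for Cish. Clec10a with IL-4d2 was 0.21. Between the forms they were −0.47 for Clec10a, −0.12 for Clec4a2, −0.21 for Clec4n, −0.96 for Cd209a, −0.16 for Malt1, −0.41 for Mrc1, −0.21 for Lgals3, −0.27 for Slc7a2, −0.27 for Bhlhe40, −0.14 for Cish, −0.11 for Psap, −0.20 for Itgb2 and −0.16 for Fcgr2b. On the hybridisation scale Cd209a was −0.22 and Slc7a2 −0.087 with IL-4, Clec10a 0.034 with IL-4d2, and Cd209a −0.45 between the forms. With IL-4d2 against control, leaving out 1 array gave −0.052 to 0.51 for Clec7a and −0.21 to 0.088 for Clec10a, and Clec7a was −0.052 with both arrays of outlying muscle signal dropped. With those 2 arrays out, Mgl2 with IL-4 against control stayed at 0.51 without a call (adjusted p = 0.106). Dim signals limit Clec4d and Clec4e most.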
